A study of Mus musculus with 8 samples.

Results

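The genes described here are 38 components, inhibitors and target genes of the NF-kB pathway, read by symbol from a table of 15566 genes in sorted mouse monocytes. Of the 38, 37 had a row in the table and all 37 passed the filter on low counts, so none was lost to it. Il1a, which encodes the cytokine interleukin 1 alpha, was not analysed here. The cells were Ly6C-high classical monocytes from the marrow of untreated male C57BL/6 mice, 8 weeks old. The 4 deficient libraries came from LysMDCommd10 mice, in which Cre driven from the lysozyme M locus of myeloid cells removes floxed Commd10, a COMMD family adaptor gene. The 4 control libraries came from weight-matched Commd10fl/fl littermates. Cells were sorted as living CD45+ CD11b+ CD115+ CD117- Ly6G- cells with high Ly6C. Deletion is thus not limited to monocytes, and other myeloid cells of these mice carry it as well. The labels do not say whether each library is 1 mouse or a pool, and each p-value therefore speaks of the spread among these libraries. The running numbers in the sample titles follow genotype, so order and genotype cannot be told apart.

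NF-kB factors are dimers of Rel family proteins that wait in the cytoplasm, bound by inhibitors of the IkB family. Receptors for microbial products and cytokines activate the IkB kinase complex through TRAF and other ubiquitin-linked adaptors. The kinase marks the inhibitor for destruction, and the freed dimers enter the nucleus and switch on cytokines, chemokines and, as feedback, new inhibitors. In monocytes this pathway sets how fast inflammatory genes answer a stimulus. COMMD1, a relative of COMMD10, is known to promote the ubiquitination and loss of the subunit RelA.

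Feedback inhibitors carry binding sites for the factors they restrain, and the letters of such sites can be shown for 5 genes on which the results turn. Each line gives the 120 bases before a start site in RefSeq (GRCm38.p6), 5′ to 3′ on the strand of the gene, with matches to GGGNNNTTCC in capitals. The motif, a form of the NF-kB site, was searched on both strands, so a match on the other strand reads GGAANNNCCC. Tnfaip3 and Tnip1 are shown because their values did not overlap between genotypes, and Nfkbia, Cxcl2 and Rel because theirs did.
Tnfaip3 (chr10:19015411-19015530, minus strand): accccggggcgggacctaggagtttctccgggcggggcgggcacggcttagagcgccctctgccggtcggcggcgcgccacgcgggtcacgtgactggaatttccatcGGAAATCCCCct
Tnip1 (chr11:54962941-54963060, minus strand): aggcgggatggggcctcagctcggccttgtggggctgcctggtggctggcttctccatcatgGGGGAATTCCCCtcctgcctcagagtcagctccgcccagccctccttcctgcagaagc
Nfkbia (chr12:55492648-55492767, minus strand): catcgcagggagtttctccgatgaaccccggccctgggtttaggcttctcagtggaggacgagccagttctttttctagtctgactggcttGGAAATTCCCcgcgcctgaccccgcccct
Cxcl2 (chr5:90903779-90903898, plus strand): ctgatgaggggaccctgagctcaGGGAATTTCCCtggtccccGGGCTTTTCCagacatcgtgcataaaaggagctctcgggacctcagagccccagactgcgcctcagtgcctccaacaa
Rel (chr11:23770970-23771089, minus strand): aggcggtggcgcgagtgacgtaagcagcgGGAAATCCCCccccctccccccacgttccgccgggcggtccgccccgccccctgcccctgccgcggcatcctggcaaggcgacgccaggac

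In Tnip1 a pair of matches on opposite strands overlapped in 1 run, and Cxcl2 held such a pair and a single match. The promoter table used here, from RefSeq, matched 31 of the 38 genes. Within 250 bases before a start site, 12 of these 31 (38.7%) held a match at 1 start or more, against 1434 of 27025 genes (5.31%) in the whole table. Many of the 38 are textbook NF-kB targets, so this share describes the list and bears on no difference between genotypes. Genes with a match were Nfkb2, Rel, Nfkbia, Nfkbie, Nfkbid, Tnfaip3, Tnip1, Chuk, Tank, Traf3, Cxcl2 and Ccl9. Sod2, Zc3h12a and Ikbkg, whose values did not overlap between genotypes either, had no run of these letters in the window. Relb, also without overlap, was not among the 31 matched genes and was not searched.

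Total counts over genes were 17099454 to 30722262 in deficient and 14231121 to 31040255 in control libraries, which puts a single count at 0.0322 to 0.0703 CPM (counts scaled to a library total of 1000000). Levels of single genes are TMM-scaled, which corrects for differences in library composition. The value of a single count, the bound for Cre and all sums over marker lists use library totals alone. Commd10 fell to 73.0% of its control level in the deficient libraries (log2 fold change -0.46, SE 0.07, edgeR adjusted p = 0.0292). This call was lost in fits without control 1, control 3, control 4 or deficient 4 (adjusted p up to 0.138). Cre had 499 to 987 counts in deficient libraries and 0 in each control, which allows up to 0.0966 to 0.211 CPM there, for counting error only. Lyz2, the gene at the Cre locus, averaged 10380 ± 656 CPM in deficient and 21036 ± 1226 CPM in control libraries (SD, n = 4 each, log2 fold change -1.02, edgeR adjusted p = 2.51e-06). Cre, the lower Lyz2 level and the loss of Commd10 go together in these groups, and their effects cannot be told apart. Ly6c2, Ccr2 and Csf1r, which define classical monocytes, were high in all 8 libraries, the 10 monocyte markers together at 23026 to 24327 CPM in deficient and 23961 to 24615 CPM in control libraries. Ly6g, which the gate excludes, had 7 to 13 counts in deficient and 0 to 10 counts in control libraries. Of 12 mature neutrophil markers tested 8 were higher and 4 lower in deficient libraries. That list summed to 1222 to 1388 CPM in deficient and 1230 to 1356 CPM in control libraries. All 11 neutrophil precursor markers tested were on the higher side, their list summing to 1878 to 3209 CPM in deficient and 1581 to 2099 CPM in control libraries. Most of each sum was Chil3, at 1521 to 2649 CPM in deficient and 1285 to 1807 CPM in control libraries. All 7 erythroid markers tested were on the lower side, at 252 to 477 CPM in deficient and 408 to 711 CPM in control libraries. Of 9 macrophage markers tested 6 were lower, and of 6 eosinophil, basophil and mast cell markers 5 were lower. No marker of these lists passed the threshold, and their part in the values below was not tested.

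Resting marrow monocytes carried the machinery of the pathway at moderate levels and a few of its targets at high ones. Compared per kb of exon, as the mean over 8 libraries, the highest member was the chemokine gene Ccl6 at 401 CPM per kb, followed by the chemokine gene Ccl9 at 214 CPM per kb. Nfkbia, the main IkB inhibitor, and Tnfaip2, a tumor necrosis factor-induced gene, came next at 69.1 and 67.5 CPM per kb. Ccl3, which encodes the macrophage inflammatory chemokine, was at 54.5 CPM per kb. Among subunits Rela led with 42.5 CPM per kb, then Nfkb1 with 30.8, Rel and Nfkb2 with 18.4 and 18.1, and Relb with 6.96 CPM per kb. Rel and Nfkb2 did not differ beyond their spread over the libraries.

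At the low end stood Traf1 at 0.118, Ccl5 at 0.611 and Ptgs2, the inducible cyclooxygenase gene, at 0.760 CPM per kb. Traf1 is an adaptor and Ccl5 a chemokine, and both are strongly induced in activated cells. The IkB kinase genes lay between these extremes, with Ikbkb at 22.5, Chuk at 15.8 and the regulatory subunit gene Ikbkg at 5.18 CPM per kb. Lengths are unions of all annotated exons, so levels of genes with long unused exons are understated.

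**Figure D1:**
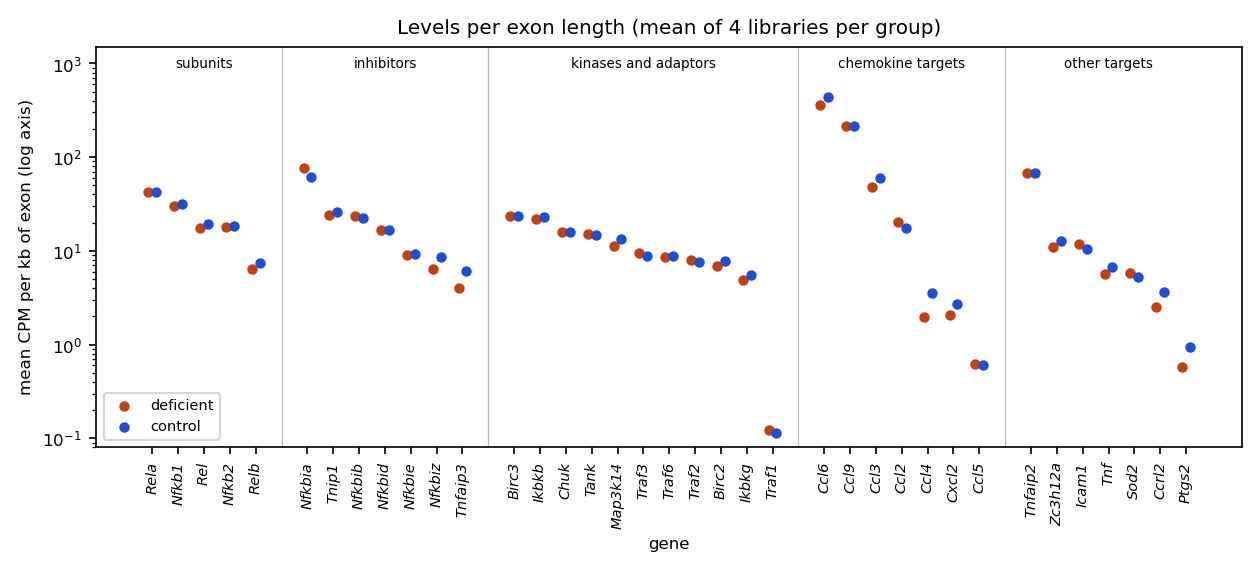
Mean CPM per kb of exon (vertical, log axis) of the 37 genes, with deficient (orange) and control (blue) means of 4 libraries each, sorted within class. Ccl6 and Ccl9 stand highest, at 401 and 214 CPM per kb over 8 libraries, and Traf1 lowest at 0.118.

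Between genotypes, no gene of the list passed the threshold of an edgeR adjusted p under 0.05: 0 of 37 were called, where 0.873% of all 12938 genes tested were (113 genes, 0.356% higher and 0.518% lower). Leaving out 1 library moved the count over all genes to between 1 and 522, and that of the list to at most 1. At an unadjusted p under 0.05 there were 11 of 37 (29.7%), 2 of them higher and 9 lower, beside 24.0% of all genes (11.9% higher, 12.1% lower). DESeq2 called 1 of the 37, Tnfaip3 (log2 fold change -0.60, adjusted p = 0.00361), where it called 5.89% of all genes (2.73% higher, 3.16% lower). Groups did not overlap for 6 of 37 genes, 16.2% beside 12.6% of all genes tested. Deficient values lay below all controls in 5 of them, Relb, Tnfaip3, Tnip1, Ikbkg and Zc3h12a (6.70% of all genes), and above in Sod2 (5.93% of all genes). The median log2 fold change of the list was -0.03, beside 0.00 over all genes tested, with 24 of 37 genes on the lower side (64.9%, against 49.8% of all genes). Over both directions together, the shares past an unadjusted p and without overlap lie near those of the whole table. On the lower side alone they were 24.3% of the list beside 12.1% of all genes at an unadjusted p, and 13.5% beside 6.70% without overlap. No test was made of these shares. Without the shallowest library of each group, an added fit, 0 of 37 were called as well. With 3 libraries a group, 9 of 37 did not overlap (24.3%), beside 24.5% of all genes in that fit.

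The first class, the Rel family subunits, had nearly the same level in both genotypes apart from Relb. Rela encodes the main activating subunit. It had 124, 135, 133 and 134 CPM in deficient 1 to 4, against 123, 131, 130 and 134 CPM in control 1 to 4. The groups overlapped throughout, and the 95% interval of the log2 fold change, -0.08 to 0.12, is among the narrowest of the list.

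Relb (ENSMUSG00000002983, chr7:19606217-19629438, minus strand) encodes the partner in the slower, non-canonical arm of the pathway. It had 26.1, 24.3, 24.1 and 26.1 CPM in deficient 1 to 4, against 27.5, 30.1, 28.0 and 30.1 CPM in control 1 to 4. Every deficient library lay below every control, at 25.1 ± 1.09 CPM in deficient and 28.9 ± 1.40 CPM in control libraries (SD, n = 4 each). The log2 fold change was -0.20 (SE 0.06, 95% interval -0.33 to -0.08), and edgeR's adjusted p of 0.0836 missed the threshold.

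Rel, the subunit prominent in blood cells, had 144, 120.4, 139.5 and 122 CPM in deficient against 133, 149, 143 and 146 CPM in control libraries. Deficient 1 and 3 lay among the controls while deficient 2 and 4 lay below them (log2 fold change -0.12, 95% interval -0.25 to 0.02). Nfkb1, a precursor subunit that also feeds back on the pathway, had 358, 349, 373 and 367 CPM in deficient against 359, 363, 398 and 403 CPM in control libraries. It averaged 362 ± 10.7 CPM in deficient and 381 ± 22.9 CPM in control libraries (SD, n = 4 each). Its groups overlapped, as did those of Nfkb2, the precursor of the non-canonical arm, at 82.6 ± 2.61 CPM in deficient and 83.6 ± 6.27 CPM in control libraries.

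The inhibitors had log2 fold changes of both signs, with none past the threshold in edgeR. Tnfaip3 (ENSMUSG00000019850, chr10:19000910-19015657, minus strand) encodes a ubiquitin-editing enzyme that shuts off signalling from receptors. Its values were 35.0, 20.9, 35.6 and 25.8 CPM in deficient 1 to 4, against 40.5, 48.5, 42.4 and 45.6 CPM in control 1 to 4. All deficient values lay below all controls, with deficient 2 and 4 lowest. Deficient libraries averaged 66.2% of the control level (29.3 ± 7.21 CPM in deficient against 44.3 ± 3.56 CPM in control libraries, SD, n = 4 each), the largest difference among the 6 genes whose groups did not overlap. The log2 fold change of -0.60 (SE 0.17, 95% interval -0.99 to -0.22) had an edgeR adjusted p of 0.101, with 0.0592 to 0.252 when 1 library was left out.

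Tnip1 (ENSMUSG00000020400, chr11:54910785-54962917, minus strand) encodes a binding partner of that enzyme. It had 84.5, 84.97, 83.9 and 85.7 CPM in deficient against 89.0, 90.4, 95.3 and 97.0 CPM in control libraries. The deficient libraries were nearly level and all below the controls, and the difference was small (log2 fold change -0.13, SE 0.04, edgeR adjusted p = 0.105).

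Nfkbia (ENSMUSG00000021025, chr12:55489410-55492647, minus strand), the classical inhibitor and itself an NF-kB target, leaned the other way. It had 132.5, 121.0, 144.6 and 92.5 CPM in deficient against 84.2, 119.7, 88.4 and 107.5 CPM in control libraries. Deficient 4 lay among the controls and control 2 close to deficient 2, so the groups overlapped (log2 fold change 0.29, 95% interval -0.09 to 0.68, edgeR adjusted p = 0.324).

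The other 4 inhibitors overlapped between genotypes. Nfkbib, Nfkbie and Nfkbid averaged 50.8 ± 3.46, 27.6 ± 5.22 and 39.2 ± 1.02 CPM in deficient libraries. Their control means were 48.6 ± 1.52, 28.0 ± 3.65 and 39.1 ± 5.50 CPM (SD, n = 4 each). Nfkbib and Nfkbie hold dimers in the cytoplasm, while Nfkbid and Nfkbiz encode nuclear IkB proteins that modulate transcription. Nfkbiz ranged from 28.1 to 36.8 CPM in deficient libraries and from 29.9 to 75.3 CPM in controls. Control 2 alone made that upper end, and the log2 fold change of -0.43 had an interval of -1.203 to 0.34.

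**Figure D2:**
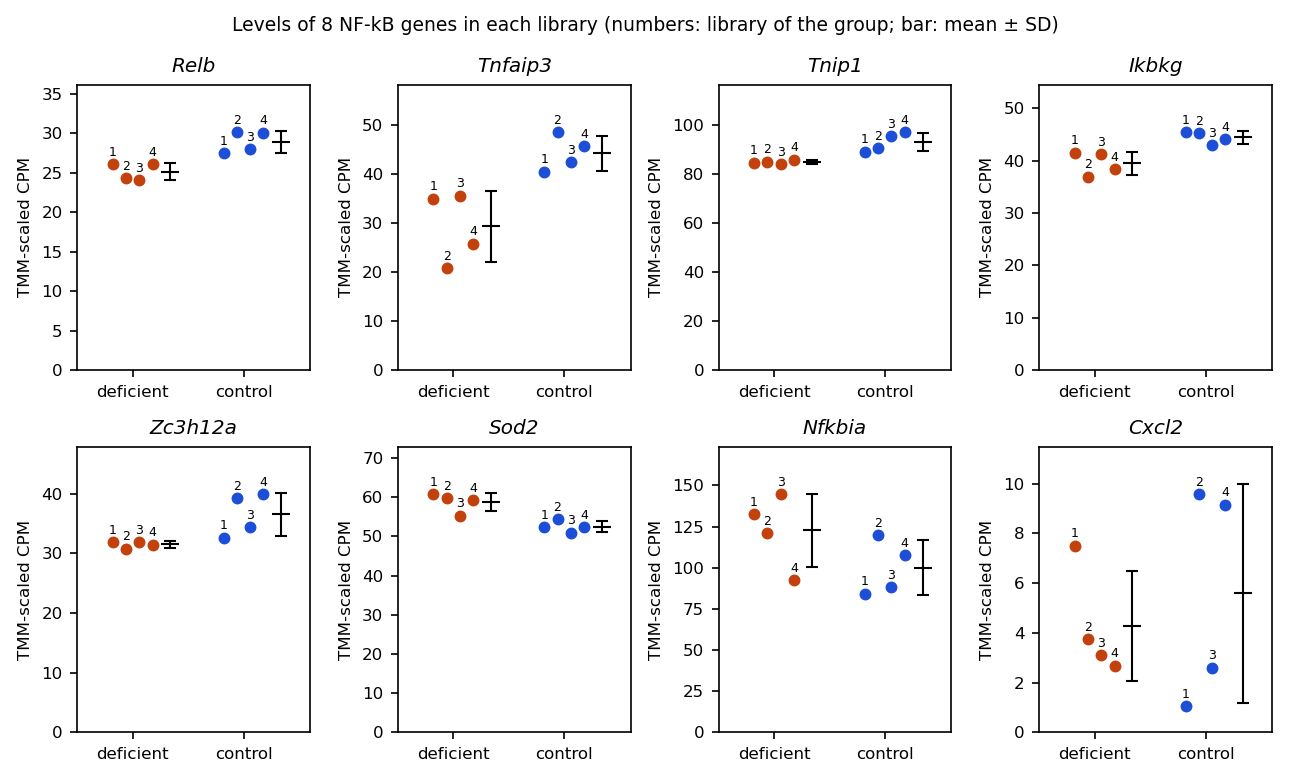
TMM-scaled CPM (vertical, from 0) of 8 genes in each deficient (orange) and control (blue) library, numbered within its group, with mean ± SD beside the points. In Relb, Tnfaip3, Tnip1, Ikbkg and Zc3h12a every deficient point lies below every control, in Sod2 above, and in Nfkbia and Cxcl2 the groups overlap.

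Kinases and adaptors were the steadiest genes across libraries together with the subunits. Ikbkg (ENSMUSG00000004221, chrX:74393290-74453854, plus strand), the regulatory subunit of the IkB kinase, had 41.5, 36.9, 41.2 and 38.4 CPM in deficient 1 to 4. Its control values were 45.5, 45.3, 42.9 and 44.1 CPM. The groups did not overlap, though deficient 1 and control 3 were close (log2 fold change -0.17, SE 0.05, edgeR adjusted p = 0.0959). The catalytic subunit genes Ikbkb and Chuk overlapped, with 95% intervals of -0.23 to 0.03 and -0.10 to 0.13.

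Map3k14 encodes the kinase that drives the non-canonical arm. It had 79.4, 66.3, 81.4 and 71.6 CPM in deficient against 77.0, 97.5, 87.9 and 92.0 CPM in control libraries. Control 1 lay within the deficient range and the other controls above it (log2 fold change -0.25, SE 0.08, edgeR adjusted p = 0.114). Birc2, a ubiquitin ligase that holds this kinase low, had 34.8, 26.9, 32.8 and 31.9 CPM in deficient against 33.98, 33.6, 37.2 and 39.1 CPM in control libraries. Deficient 1 lay above control 1 and control 2 (log2 fold change -0.19, edgeR adjusted p = 0.176).

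Birc3, its relative and the most abundant gene of this class per kb, had 122, 108, 126 and 118 CPM in deficient against 112, 118, 122 and 124.95 CPM in control libraries. It averaged 118 ± 7.57 CPM in deficient and 119 ± 5.64 CPM in control libraries (SD, n = 4 each), with an interval of -0.13 to 0.11. The adaptor genes Traf2, Traf3, Traf6 and Tank all overlapped between genotypes, with log2 fold changes of 0.06, 0.09, -0.03 and 0.05. Their 95% intervals together ran from -0.13 to 0.20. Traf1 was too low to resolve, at 1.004 to 1.16 CPM in deficient and 0.451 to 1.49 CPM in control libraries.

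Among the chemokines, Ccl6 recruits leukocytes in the mouse and was the most abundant member. It had 678, 545, 794 and 572 CPM in deficient against 751, 852, 782 and 780 CPM in control libraries. Deficient 3 lay among the controls and the other deficient libraries below them (log2 fold change -0.29, SE 0.11, edgeR adjusted p = 0.165). Without deficient 3 the log2 fold change was -0.40 and passed the threshold (edgeR adjusted p = 0.0276). That fit called 479 of 13268 genes in all, where the fit on all libraries called 113 of 12938. Deficient 3 was the library that overlapped, so leaving it out favours such a call. Over the 8 fits without 1 library, edgeR's adjusted p for Ccl6 ran from 0.0276 to 0.341.

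Ccl9, a paralog next to Ccl6 in the chemokine block on chromosome 11, was flat by contrast, at 650.4 ± 13.2 CPM in deficient and 653 ± 30.7 CPM in control libraries (SD, n = 4 each). Its interval of -0.10 to 0.09 was the narrowest among the chemokines. Ccl4, an attractant of T cells and monocytes, had 2.05, 0.831, 1.23 and 1.07 CPM in deficient against 1.76, 3.34, 2.11 and 2.14 CPM in control libraries. Deficient 1 alone reached the control range (log2 fold change -0.84, SE 0.29, edgeR adjusted p = 0.122), and without it Ccl4 passed (log2 fold change -1.19, adjusted p = 0.0394). The fit without deficient 1 called 522 of 13016 genes in all. Here too the library left out was the one that overlapped. Over the 8 fits without 1 library, edgeR's adjusted p for Ccl4 ran from 0.0394 to 0.291.

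Ccl3, the neighbour of Ccl4, overlapped more, with 46.6, 24.7, 37.4 and 39.1 CPM in deficient against 30.9, 62.2, 44.1 and 48.6 CPM in control libraries (log2 fold change -0.33, 95% interval -0.96 to 0.30). Cxcl2 attracts neutrophils and was the most variable member. It had 7.51, 3.76, 3.10 and 2.68 CPM in deficient libraries and 1.05, 9.57, 2.60 and 9.15 CPM in controls. Within the controls alone it spanned the whole range of the 8 libraries, and its log2 fold change of -0.41 had an interval of -2.09 to 1.28. Ccl2, the ligand that draws Ccr2-bearing monocytes out of the marrow, overlapped at 18.2 to 31.9 CPM in deficient and 11.8 to 25.8 CPM in control libraries. Ccl5 was below 1 CPM in every library.

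Of the other targets, Sod2 (ENSMUSG00000006818, chr17:13006846-13040063, plus strand) encodes the mitochondrial superoxide dismutase. It had 60.7, 59.7, 55.3 and 59.2 CPM in deficient against 52.3, 54.3, 50.9 and 52.3 CPM in control libraries. All deficient values lay above all controls, by 0.16 on the log2 scale (SE 0.05, 95% interval 0.06 to 0.26, edgeR adjusted p = 0.0827). Zc3h12a (ENSMUSG00000042677, chr4:125118423-125127840, minus strand) encodes a ribonuclease that degrades inflammatory transcripts. It had 31.9, 30.8, 31.9 and 31.5 CPM in deficient against 32.6, 39.3, 34.4 and 39.9 CPM in control libraries. The deficient values were close together just under control 1 (log2 fold change -0.22, SE 0.07, edgeR adjusted p = 0.0970).

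Icam1, an adhesion molecule of inflamed endothelium and leukocytes, had 52.3, 51.0, 45.3 and 57.2 CPM in deficient against 41.1, 50.6, 46.0 and 46.3 CPM in control libraries. Deficient 3 lay within the control range (log2 fold change 0.17, edgeR adjusted p = 0.206). Tnfaip2 had 345, 315, 338.9 and 339 CPM in deficient against 324, 333, 341 and 357 CPM in control libraries. Its groups overlapped, at 335 ± 13.4 CPM in deficient and 339 ± 14.3 CPM in control libraries (SD, n = 4 each). Tnf, the cytokine, averaged 9.38 ± 1.15 CPM in deficient and 11.01 ± 1.65 CPM in control libraries, with an interval of -0.47 to 0.04. Ccrl2, a chemerin-binding receptor, and Ptgs2 overlapped widely, with intervals of -1.26 to 0.15 and -1.90 to 0.56.

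**Figure D3:**
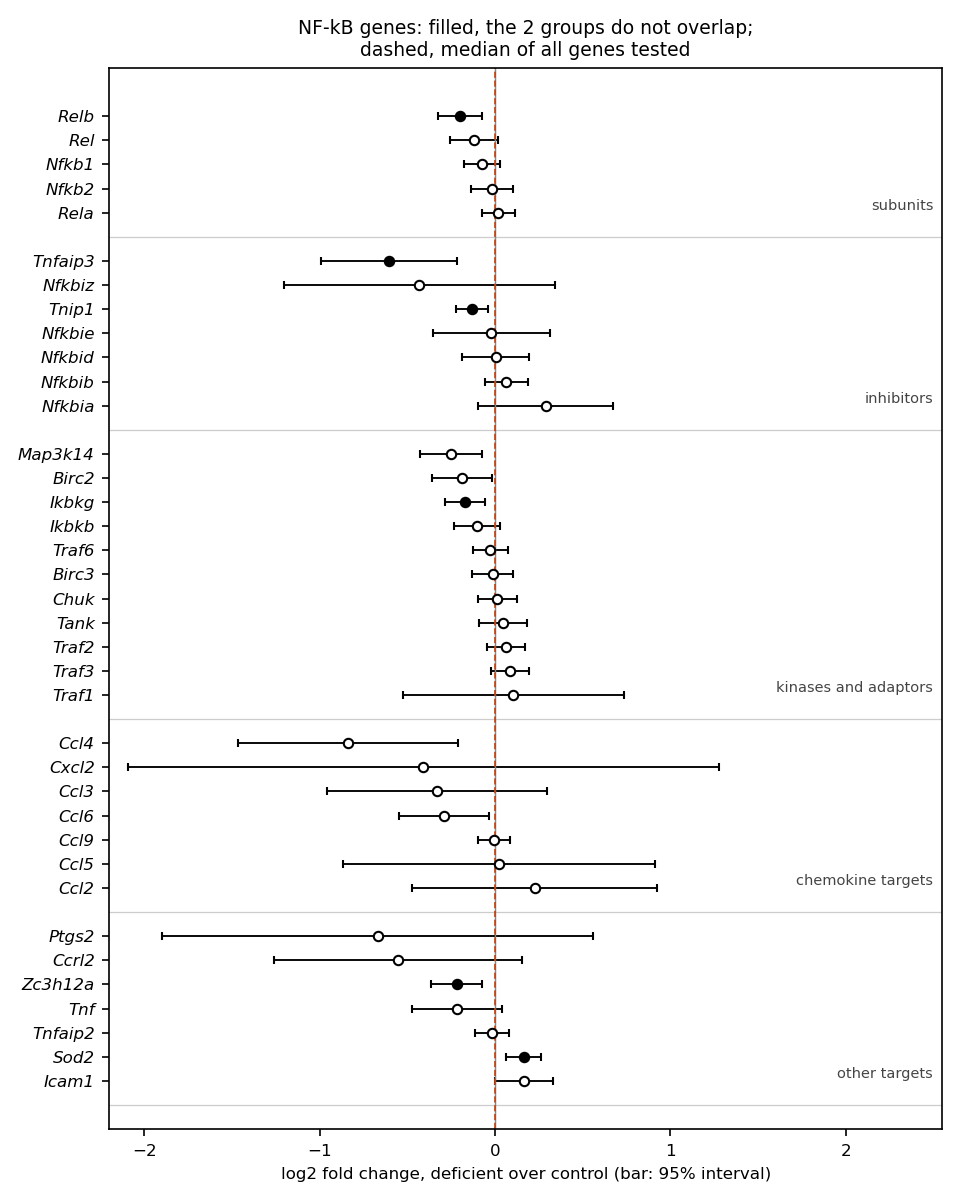
Log2 fold changes of the 37 genes, deficient over control (horizontal), with 95% intervals as bars, sorted within class. Filled points mark the 6 genes whose groups did not overlap, the dashed line is the median of all genes tested, and the widest interval is that of Cxcl2, from -2.09 to 1.28.

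Other genes of the pathway, from a list of 88 in 4 groups, held 1 call by edgeR, or 1 of the 77 tested, beside 0.873% of all genes. Besides the 77, 3 had too few counts (Il1r1, Il18r1 and Ccdc22) and 8 were not analysed here. The called gene was Cd40, a receptor that engages both arms of the pathway, which fell to 71.8% of the control level. At an unadjusted p under 0.05 there were 19 of 77 (24.7%, beside 24.0% of all genes), 12 of them higher and 7 lower. Groups did not overlap for 7 of 77 (9.09%, beside 12.6% of all genes), with deficient values above in 5 and below in 2. DESeq2 called 5 of the 77, Cd40, Tnfrsf1a, Clec4e, Pdlim2 and Tnip2, beside 5.89% of all genes. Cd40 had 21.6, 16.1, 21.3 and 17.7 CPM in deficient against 24.999, 27.2, 27.7 and 27.1 CPM in control libraries (log2 fold change -0.48, SE 0.09, edgeR adjusted p = 0.0421). In fits without deficient 2 or 4, or control 1, 3 or 4, the adjusted p was 0.0568 to 0.173.

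B cells and dendritic cells express Cd40 too, and most of their markers were on the lower side as well. All 9 B cell markers were lower in deficient libraries, with sums of 411 to 473 CPM in deficient and 450 to 619 CPM in control libraries. Most of each sum was Ighm, at 381 to 426 CPM in deficient and 418 to 552 CPM in control libraries. Of 11 dendritic cell markers 9 were lower, with sums of 322 to 570 CPM in deficient and 412 to 749 CPM in control libraries. No marker of either list passed the threshold. Scores of both lists overlapped between genotypes. Of single markers, Flt3 and Clec9a of the dendritic list lay below all controls without overlap, as Cd40 did. That is 2 of 11, and 0 of 9 on the B cell list, beside 6.70% of all genes. The B cell score was 0.18 in deficient 3 and -0.21 in control 2, and the dendritic cell score 0.19 and -0.19. No marker of these lists was at 0 in any library, and their part in the Cd40 difference was not tested. In sorted bulk RNA, fewer cells of a type and less RNA per cell cannot be told apart. For both marker lists deficient 2 had the lowest score of the 8 libraries. That library also had the lowest level of Cd40 and of 17 of the 37 genes, Tnfaip3 among them.

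In the group of receptor-proximal signalling genes, 0 of 23 passed by edgeR or by DESeq2. At an unadjusted p under 0.05 in edgeR there were 7 (30.4%, beside 24.0% of all genes). The smallest p belonged to Tab1, an activator of the kinase upstream of the IkB kinase, at 25.3 ± 2.63 CPM in deficient and 29.5 ± 1.40 CPM in control libraries (SD, n = 4 each, log2 fold change -0.22, edgeR adjusted p = 0.115). Ube2n, which builds the ubiquitin chains that TRAF6 uses, averaged 51.9 ± 4.51 CPM in deficient and 45.3 ± 2.92 CPM in control libraries, with the lowest deficient value just above control 2 (SD, n = 4 each, log2 fold change 0.20, edgeR adjusted p = 0.122).

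Among 19 further negative regulators 0 passed by edgeR, with 6 at an unadjusted p under 0.05 (31.6%, beside 24.0% of all genes). DESeq2, which called 5.89% of all genes, called Pdlim2 and Tnip2, the pair with the smallest p in edgeR, which lay on opposite sides. Pdlim2, a ubiquitin ligase for RelA, had 22.4, 17.6, 24.6 and 18.8 CPM in deficient against 25.3, 26.6, 28.9 and 29.5 CPM in control libraries. Every deficient value lay below every control (log2 fold change -0.41, SE 0.10, edgeR adjusted p = 0.0646). Tnip2, a relative of Tnip1, had 36.0, 39.2, 38.4 and 42.2 CPM in deficient against 30.5, 32.3, 36.0 and 30.1 CPM in control libraries, with deficient 1 just under control 3 (log2 fold change 0.28, SE 0.07, edgeR adjusted p = 0.0646).

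Of 27 further target genes 0 passed by edgeR, with 3 at an unadjusted p under 0.05 (11.1%, beside 24.0% of all genes). DESeq2, with 5.89% of all genes called, called Clec4e. Clec4e, a receptor for mycobacterial glycolipid, had 39.4, 63.1, 34.9 and 55.3 CPM in deficient against 34.3, 30.4, 29.8 and 29.2 CPM in control libraries, with the lowest deficient value just above control 1 (log2 fold change 0.65, SE 0.19, edgeR adjusted p = 0.114). Tnfsf9, a costimulatory ligand, averaged 4.17 ± 1.15 CPM in deficient and 2.81 ± 0.665 CPM in control libraries (SD, n = 4 each, log2 fold change 0.57, edgeR adjusted p = 0.146).

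Chemokine genes were the most variable class from library to library, and their scores overlapped between genotypes. The coefficient of variation over 8 libraries had a median of 5.39% for subunits, 6.97% for kinases and adaptors, 15.02% for inhibitors, 10.6% for other targets and 28.7% for chemokines, beside 9.08% over all genes tested. It was 67.0% for Cxcl2, 63.5% for Ptgs2 and 40.9% for Nfkbiz, and part of it is counting error in the low genes. Control 2 was the highest library for 13 of the 37 genes and control 4 for 11. Deficient 2 was the lowest for 17 and control 1 for 10.

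**Figure D4:**
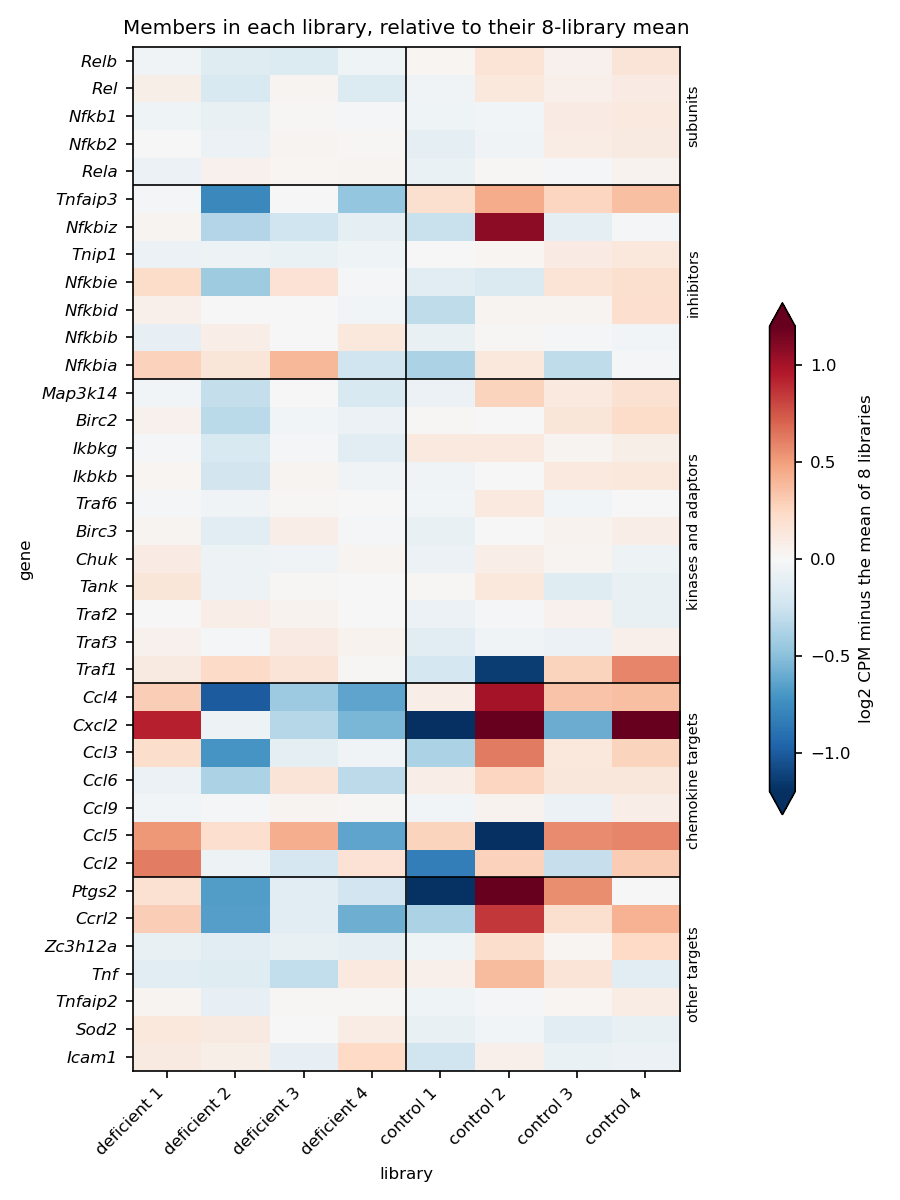
Log2 CPM of the 37 genes (rows, by class) in each library (columns, deficient left of control), minus the mean over 8 libraries. Colours are capped at both ends of the bar. Strong colours lie mostly in chemokine and other target genes: control 2 is high for Cxcl2, Ptgs2 and Ccl4 and low for Ccl5, while subunits stay near 0.

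The chemokine score, the mean log2 CPM of the 7 chemokines relative to all 8 libraries, was 0.33, -0.29, -0.08 and -0.27 in deficient 1 to 4 and -0.39, 0.27, 0.02 and 0.40 in control 1 to 4. Deficient 1, control 2 and control 4 were high, and the lowest was control 1. Immediate early genes, which cells switch on within minutes of a stimulus or of handling, had scores of 0.27, -0.34, -0.19 and -0.31 in deficient 1 to 4. In control 1 to 4 these scores were -0.42, 0.52, 0.10 and 0.37. The same 3 libraries were highest and the same 1 lowest in both lists.

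That immediate early list holds 20 genes, of which 19 were tested and 17 were lower in deficient libraries, with 0 past the threshold. The 2 on the higher side were the heat shock genes Hspa1a and Hspa1b, at log2 fold changes of 1.08 and 1.10. The 20 genes sum to 3335 to 4611 CPM in deficient and 3338 to 5928 CPM in control libraries, with Egr3 at 0 in at least 1 library. Fos had 1139, 810.2, 951 and 860.2 CPM in deficient against 680.4, 1440.1, 1106 and 1470 CPM in control libraries. Their part in the chemokine values was not tested.

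**Figure D5:**
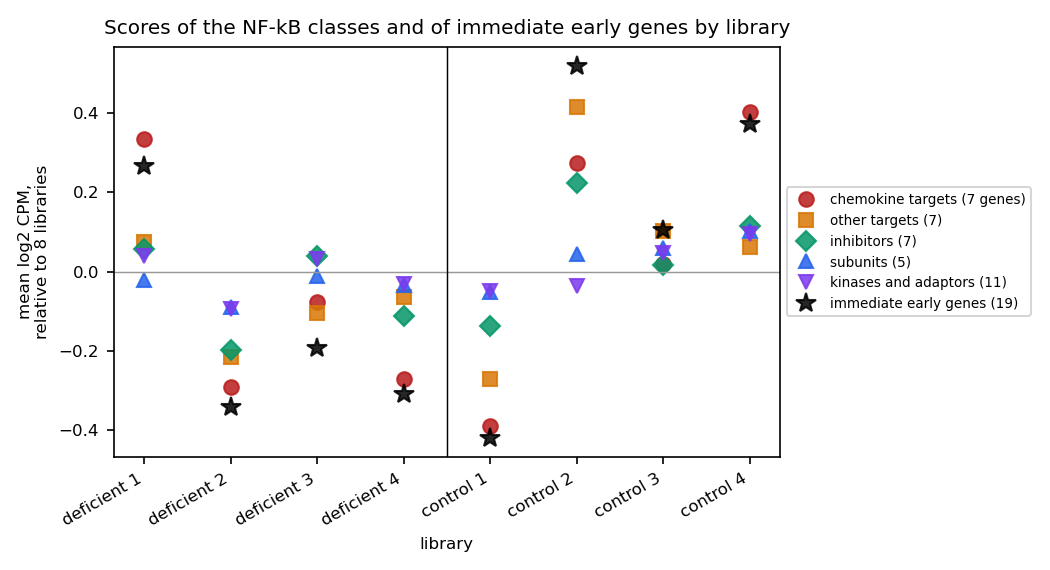
Scores (vertical, mean log2 CPM relative to the 8 libraries) of the 5 NF-kB classes and of 19 immediate early genes (stars) in each library (horizontal, deficient left of control). Chemokine targets and immediate early genes are both high in deficient 1, control 2 and control 4 and lowest in control 1, at -0.39 and -0.42.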

How the data were processed

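Per the labels' protocols, libraries were built from the polyA fraction and read from 1 end. Analysis started from the deposited table's block of raw counts, 1 whole number per gene and library. GRCm38, STAR 2.7.3a, HTSeq 0.12.4, cutadapt and DESeq2 are named, with no role, in the submitters' processing notes. Whether counting used strand is not stated in those sources, and reads of overlapping or antisense genes cannot be told apart. Exons of 6 of the 37 genes overlap another gene, over 10% of their length in Nfkb2, Nfkbib and Icam1. Columns were matched to samples by title, and 8 columns of normalized values were not used. The Cre row stayed out of library sizes and tests.

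Genes were kept by edgeR's filterByExpr, with a smallest count of 10 and a smallest total of 15. TMM scaling and a robust quasi-likelihood fit on genotype (edgeR 4.0.16 in R 4.3.3) followed, over 12938 genes. P-values are two-sided, with Benjamini-Hochberg adjustment over all those genes and a threshold of 0.05. The standard error is derived from the F statistic, as is the 95% interval. DESeq2 1.42.0 served as an alternative. The fit was tested on simulated data, 3 tables of 12938 genes with 200 changed. It found 42.8% of the changes of 1.25-fold. At 1.5-fold it found 67.2% and at 2-fold 79.8%. False calls made up 5.26%. Scores use log2 CPM with a prior count of 2. Exon lengths and positions are from GENCODE M21, and promoters from RefSeq.

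The genes, lists and tests were chosen with earlier results of these data known. By rule, values in each library are given for the 3 genes of each class with the smallest p, the gene highest per kb in each class, and genes whose groups did not overlap. Of the other pathway genes, those past the threshold, or else the 2 with the smallest p in a group, are named. Other genes with values in each library were chosen after their values were seen.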

Additional observations from a re-analysis of the deposited data

Results flagged for a closer look

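Nfkbiz, which encodes a nuclear IkB protein, reached 75.3 CPM in control 2, while the remaining controls had 29.9 to 35.3 CPM. The gap was 0.882 of the range of the 4 controls, above Dixon's 95% critical value for groups of this size. It was the only such gap among 76 groups of 4 libraries, from 38 genes (the 37 of the list and Cd40), where chance gives about 1 in 20. Without control 2 the log2 fold change of Nfkbiz was -0.03.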

How the results depend on the processing

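Of the 37 genes, 26 kept the sign of their log2 fold change under all 14 alternatives, and 3 passed the threshold under at least 1 (Tnfaip3, Ccl4 and Ccl6). DESeq2 called 762 genes in all, 1 of the list and 5 of the other pathway genes. Leaving out 1 library gave 1 to 522 calls over all genes (113 with all 8 libraries), namely 522, 29, 479 and 2 without deficient 1 to 4 and 1, 298, 3 and 8 without control 1 to 4. It gave 0 to 1 in the list and 0 to 7 among the other pathway genes. Commd10 then ranged from -0.53 to -0.42. Without the shallowest library of each group (control 3 and deficient 3), chosen after seeing the data, 1 gene was called in all and 0 of the other pathway genes, and Commd10 was at -0.47 (edgeR adjusted p = 0.0904). The cause of these moves was not tested, beyond the smaller number of samples. Signs turned only when 1 library was left out. The log2 fold change then ranged from -0.061 to 0.016 for Nfkb2, -0.0039 to 0.046 for Rela, -0.11 to 0.10 for Nfkbie, -0.088 to 0.083 for Nfkbid and -0.019 to 0.041 for Chuk. It ranged from -0.14 to 0.44 for Traf1, -0.043 to 0.0060 for Traf6, -0.042 to 0.029 for Birc3, -0.30 to 0.26 for Ccl5, -0.031 to 0.020 for Ccl9 and -0.040 to 0.010 for Tnfaip2. Mean levels of Traf1 and Ccl5 were at about 1 CPM or below, where few counts are available. No paired analysis was possible because the labels give the groups no shared replicate numbers.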

Other observations

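The ratio of Nfkbia to Tnfaip3, a pair of feedback inhibitors chosen after their values were seen, does not depend on library scaling. It was 3.79, 5.80, 4.06 and 3.59 in deficient 1 to 4, against 2.08, 2.47, 2.09 and 2.36 in control 1 to 4. The groups did not overlap, but those of Tnfaip3 alone did not either, and no test was made. Bcl3, an atypical IkB protein that partners with the Nfkb1 and Nfkb2 products, had 83.0, 120.2, 103 and 117 CPM in deficient against 60.1, 93.5, 50.0 and 49.9 CPM in control libraries. Control 2 lay above deficient 1 (log2 fold change 0.74, SE 0.24, edgeR adjusted p = 0.132), and without control 2 Bcl3 was past the threshold. The fit without control 2 called 298 of 13281 genes in all. Control 2 was the control that overlapped, so leaving it out favours such a call. Commd1, the relative of the deleted gene that acts on RelA, averaged 27.5 ± 2.63 CPM in deficient and 23.5 ± 1.46 CPM in control libraries (SD, n = 4 each, log2 fold change 0.23, edgeR adjusted p = 0.112).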
